A study of Mus musculus with 16 samples.

Results

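Inhibitory checkpoint receptors are the surface proteins through which activated lymphocytes are restrained. The 7 genes described here are Pdcd1, Ctla4, Tigit, Lag3, Havcr2, Cd160 and Entpd1, out of 24469 gene symbols in the tables. They were chosen by name, as known inhibitory receptors and the ectoenzyme often measured with them on T and NK cells. Earlier results of these data were known when they were chosen. Their transcripts were counted in single CD8 T, Foxp3+ T and NK cells of MC38 tumors and of spleens. The mice were C57BL/6, 8 weeks old, and either Aire+/+ or Aire-/-. Aire is the thymic regulator that lets developing T cells meet tissue antigens, and mice without it export more self-reactive T cells. Each mouse carried MC38, a colon adenocarcinoma line, and received either aPD1 (an antibody against PD-1) or the Isotype Control antibody before harvest on day 19. Every combination of genotype and antibody, called an arm below, gave 1 library per tissue from cells sorted on CD45 and 1 from cells sorted on CD8, 16 libraries in all. Tumors of 4 to 6 mice were pooled in an arm, and spleens were pooled too, so the spread between mice cannot be read from any library.

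PD-1, the product of Pdcd1, and CTLA-4 belong to the CD28 family: PD-1 recruits phosphatases that damp signals from the T cell receptor and CD28, and CTLA-4 takes the B7 ligands away from CD28. TIGIT competes with CD226 for the poliovirus receptor, LAG-3 is a CD4-like protein that binds MHC class II, and TIM-3, encoded by Havcr2, has galectin-9 and CEACAM1 among its reported ligands. CD160 is a lipid-anchored receptor for HVEM that is found on NK cells and on some CD8 T cells, and CD39, encoded by Entpd1, is an enzyme that breaks down extracellular ATP on the path to adenosine. On T cells that meet antigen for a long time, as in a tumor, several of these proteins tend to appear together, while regulatory T cells carry CTLA-4, TIGIT and CD39 as part of their normal outfit.

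The libraries held between 10987966 and 38961019 unique molecular identifiers (UMIs, each standing for 1 captured RNA molecule). The lowest was the CD45 sort of the Aire+/+ anti-PD1 spleen and the highest the CD45 sort of the Aire+/+ isotype tumor. Tumor cells were deeper than spleen cells, with medians of 8883 to 12251.5 UMIs per cell against 4413.5 to 6405. Cell types were gated on UMIs of defining genes, as a Cd3 gene with Cd8a or Cd8b1 for CD8 T cells. In the sort on CD8, this gate held 2463 cells of the Aire+/+ isotype tumor, 2103 of the Aire+/+ anti-PD1 tumor, 1760 of the Aire-/- isotype tumor and 2139 of the Aire-/- anti-PD1 tumor, between 91.8% and 96.7% of each library. The matching spleens gave 2775, 2843, 2277 and 2526 cells, and the label of the sort therefore fits its marker genes. Values in a run of 4 always follow that order: both Aire+/+ arms come first, then both Aire-/- arms, and within a genotype isotype stands before anti-PD1. The sort on CD45 held all 3 cell types, with 125, 197, 199 and 696 CD8 T cells, 121, 80, 35 and 71 Foxp3+ T cells and 103, 122, 146 and 236 NK cells in the tumors. In the spleens it gave 141, 154, 150 and 186 CD8 T cells, 31, 38, 50 and 55 Foxp3+ T cells and 82, 48, 54 and 51 NK cells. Aire itself had between 0 and 6 UMIs in a library, too few to check the genotype labels from this gene. At most 18 cell barcodes were shared by 2 libraries, or 0.879% of the smaller one.

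Levels are given in the usual unit CPM, that is UMIs of a gene scaled to all UMIs of the same gated cells, and since UMIs are counted at 1 end of the RNA no ranking of one gene against another is read from them. Every interval printed here is a 95% interval for counting error alone. Because each arm has 1 library in each tissue and sort, arms were compared by ratios without a test. Tumor was tested against spleen over the 4 arms with edgeR, each arm being a block, with p-values adjusted over all genes tested. For flow cytometry the study describes enzymatic dissociation of tumors and mechanical dispersion of spleens. If the sequenced cells were prepared in the same way, tissue and preparation cannot be told apart in any of these tests.

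In CD8 T cells the 7 receptors separated tumor from spleen in every arm. Of the CD28 family, Pdcd1 stood at 668, 957, 796 and 784 CPM in the tumors of the CD8 sort and at 4.56, 5.04, 5.62 and 6.65 CPM in the spleens. Ctla4 was at 473, 606, 508 and 538 CPM in the tumors against 5.14, 5.25, 5.10 and 6.91 CPM. For both genes the Aire+/+ anti-PD1 tumor was the highest and the Aire+/+ isotype tumor the lowest, and the tissues lay about 2 orders of magnitude apart without overlap. Pdcd1 rose 138-fold in tumors (log2 7.11 ± 0.11 SE, adjusted p = 8.06e-09 in edgeR, higher in 4 of 4 arms) and Ctla4 89.5-fold (log2 6.48 ± 0.09 SE, adjusted p = 6.80e-09, 4 of 4 arms). Among 11750 genes tested, Pdcd1 held place 104 by the size of its rise and Ctla4 place 161. Here and below, a rise compares all gated CD8 T cells of each tissue. The part of a different make-up of these cells was not tested.

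Tigit had 189, 291, 216 and 219 CPM in tumor CD8 T cells and 4.19, 5.97, 7.61 and 10.9 CPM in splenic ones. The anti-PD1 treated Aire+/+ tumor was again the highest, and in the spleens both Aire-/- libraries lay above both Aire+/+ libraries. Lag3 showed the same split of the genotypes in the spleens, at 4.51, 4.0, 7.74 and 13.4 CPM, while its tumor values were 752, 936, 904 and 837 CPM. Tigit rose 30.9-fold in tumors (log2 4.95, adjusted p = 2.86e-07 in edgeR) and Lag3 116-fold (log2 6.86, adjusted p = 3.57e-07), each in 4 of 4 arms.

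Havcr2, often taken as a mark of late exhaustion, was at 135, 163, 146 and 158 CPM in the tumors and at 2.92, 1.15, 4.90 and 4.71 CPM in the spleens. Entpd1, which is also high on myeloid cells and regulatory T cells, was at 57.2, 74.1, 71.5 and 77.9 CPM against 1.33, 2.24, 3.31 and 4.07 CPM. Both were lowest in the Aire+/+ isotype tumor and higher in the Aire-/- than in the Aire+/+ spleens. Their rise in tumors was 43.0-fold for Havcr2 (adjusted p = 6.91e-07 in edgeR, 4 of 4 arms) and 24.9-fold for Entpd1 (adjusted p = 1.36e-07, 4 of 4 arms).

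Cd160 was the exception in size. It had 58.3, 53.8, 54.6 and 61.3 CPM in tumor CD8 T cells and already 33.5, 27.0, 30.5 and 29.1 CPM in splenic ones, so that its tissues were separated by less than any other member's. The rise was 1.79-fold (log2 0.84 ± 0.07 SE, adjusted p = 1.06e-05 in edgeR, higher in 4 of 4 arms). With it, all 7 members passed the test in the tumor direction, where 37.7% of the genes tested did so. Cd160 stood at place 2383 in the order of rises, the other 6 members between places 104 and 333.

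CD8 T cells of the CD45 sort, in separate libraries of the same arms and tissues, gave tumor levels close to those above. There Pdcd1 was at 513, 764, 682 and 684 CPM in tumors and at 15.1, 9.37, 29.6 and 5.92 CPM in spleens. Lag3 was at 666, 729, 834 and 799 CPM against 9.70, 14.6, 10.8 and 18.6 CPM, and Ctla4 at 384, 464, 466 and 566 CPM against 5.39, 8.33, 7.89 and 10.1 CPM. The spleen values rest on few molecules, 60 for Pdcd1 and 33 for Ctla4 over all 4 libraries. Tigit lay between 175 and 253 CPM in these tumors, Havcr2 between 111 and 154, Cd160 between 53.5 and 58.1 and Entpd1 between 50.6 and 79.7. All 7 were again higher in tumors (28.0% of 8593 genes were), with the log2 rise running from 0.47 for Cd160 (adjusted p = 0.0198 in edgeR, 4 of 4 arms) to 5.80 for Ctla4 (adjusted p = 1.20e-16, 4 of 4 arms). In fold, the rise was smaller than in the CD8 sort for Pdcd1 (42.7), Lag3 (52.8), Ctla4 (55.7), Tigit (13.5), Entpd1 (14.7) and Cd160 (1.385). It was larger for Havcr2 (50.2). The Cd160 call did not hold when the Aire-/- anti-PD1 arm was left out (log2 0.23, adjusted p = 0.253) or the Aire+/+ anti-PD1 arm (log2 0.42, adjusted p = 0.0599).

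Shares of cells with at least 1 UMI tell how widespread the receptors were. In the tumor CD8 sort, Pdcd1 was seen in 80.1% to 89.6% of CD8 T cells, Lag3 in 74.2% to 85.6%, Ctla4 in 77.4% to 85.3% and Tigit in 65.2% to 79.7%. Havcr2 was seen in 45.5% to 53.0%, Entpd1 in 36.7% to 43.5% and Cd160 in 24.9% to 31.7%. Tumor macrophages, which should lack most of these receptors, served as a reference cell type. They come from the CD45 libraries, where CD8 T cells are fewer, and so do not measure free RNA in the CD8 libraries. At a greater depth (medians of 11534 to 14797 UMIs against 8819 to 10970), Pdcd1 was found in 1.27% to 2.03% of them, Lag3 in 2.18% to 3.27%, Ctla4 in 0.369% to 0.935% and Tigit in 0.127% to 0.467%. Macrophages do express the remaining pair, with Havcr2 in 66.8% to 76.4% of their cells and Entpd1 in 61.6% to 73.4%, so they set no floor for those genes. In splenic CD8 T cells (medians of 5783 to 6377 UMIs), Cd160 was the most often seen member, in 9.30% to 12.4% of cells, and Pdcd1 was seen in 1.80% to 2.77%. Splenic B cells gave 0 Pdcd1 UMIs in each of the 4 libraries.

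Macrophage genes in the gated lymphocytes give a partial measure of carry-over. The gates themselves limit the UMIs of C1qa, C1qb, C1qc, Lyz2 and Csf1r in a cell, while Apoe and Adgre1 are not limited. A low sum is therefore partly set by the gate, and carry-over before gating cannot be read from it. Summed over the 7 genes C1qa, C1qb, C1qc, Csf1r, Lyz2, Apoe and Adgre1, tumor CD8 T cells of the CD8 sort had 11.6, 20.9, 24.1 and 31.8 CPM, while macrophages had 13600 to 18220 CPM. C1qb was the most abundant of them in CD8 T cells, and macrophages carry Havcr2 at 106 to 136 CPM and Entpd1 at 99.9 to 161 CPM. The macrophage sum in CD8 T cells rose from the first to the last arm in that list, and its part in the Havcr2 and Entpd1 values was not tested.

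**Figure D1:**
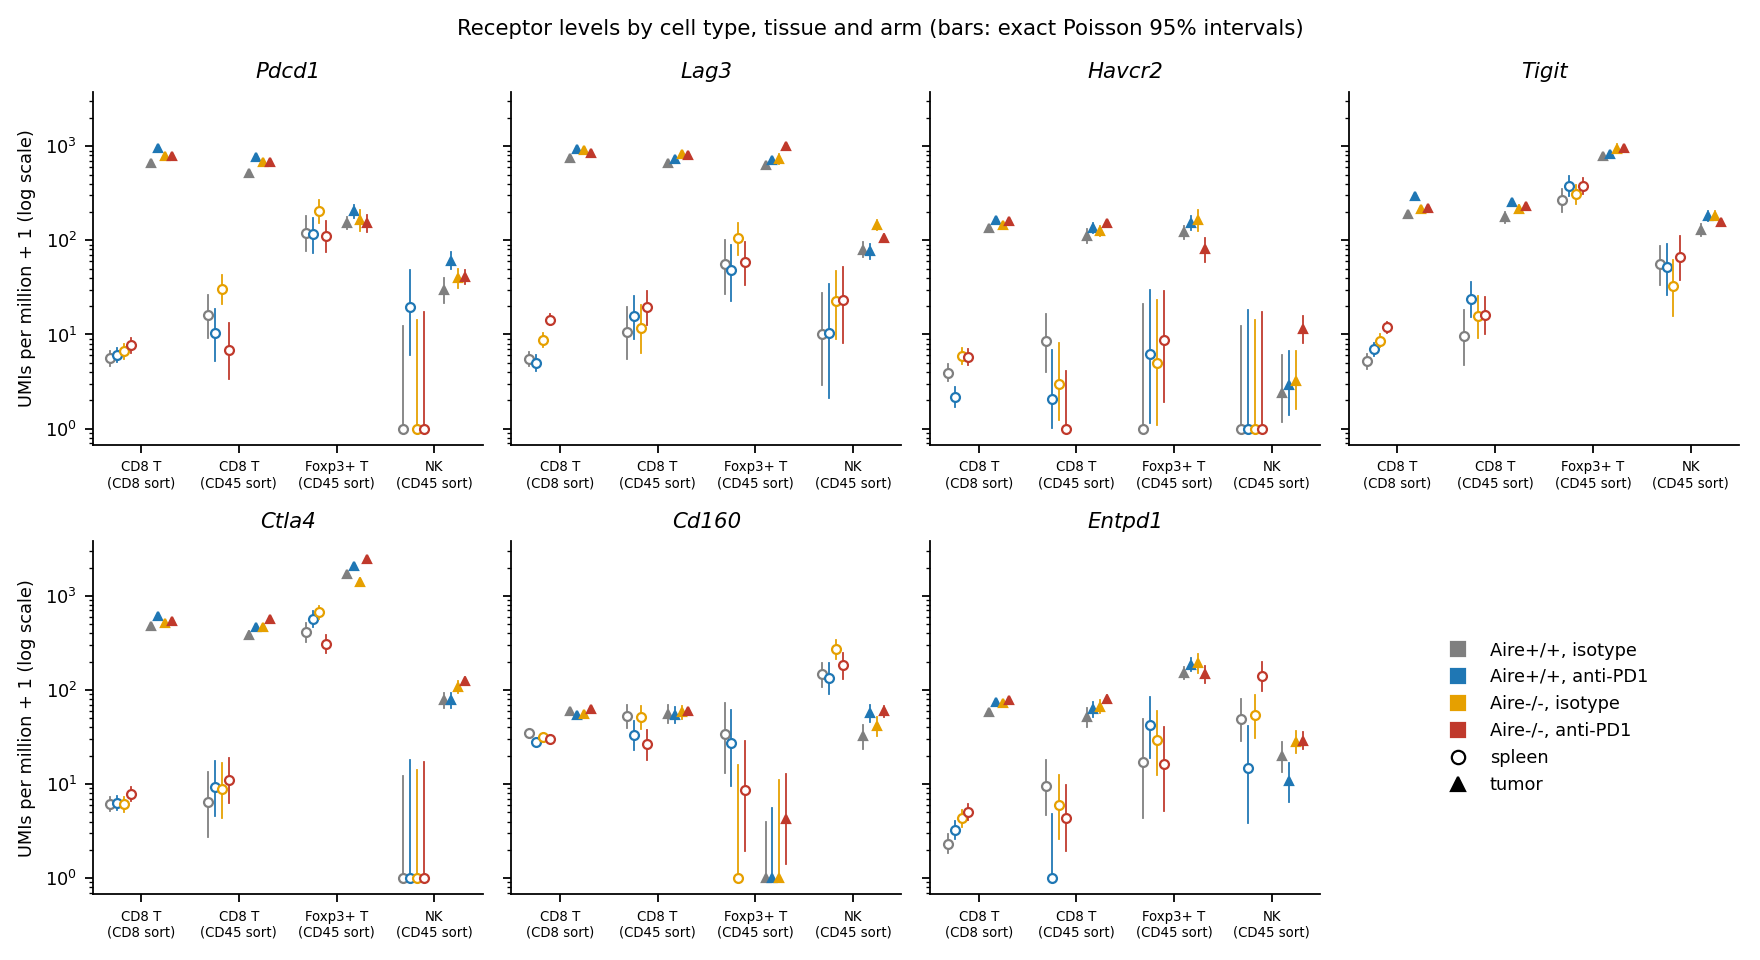
Level of each receptor in CPM plus 1 on a log axis, by cell type and sort; open circles are spleens, filled triangles tumors, colors the 4 arms, and bars the exact Poisson 95% intervals. Tumor CD8 T cells lie above splenic ones for all 7 genes, while NK cells have more Cd160 and Entpd1 in the spleen.

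Related genes were read from lists. Among other inhibitory receptors, 8 of 13 tested genes rose and 4 fell in tumor CD8 T cells of the CD8 sort, with Lilrb4a, an ITIM-bearing receptor better known from myeloid cells, rising most (log2 6.42). Cd244 (log2 5.0), an NK and T cell receptor of the SLAM family, and Klrc1 (log2 4.38), which encodes the inhibitory NKG2A, rose with it. Btla, whose product shares the ligand HVEM with CD160, fell (log2 -2.49). Thus the receptors of this wider family did not all move one way, and 77.2% of all genes tested passed in either direction, 39.5% of all genes being lower.

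The list of ligands and partner enzymes had 11 of 12 tested genes higher and 1 lower in tumor CD8 T cells, against 37.7% and 39.5% of all genes. Pdcd1lg2 and Cd274, the ligands of PD-1, rose by 5.23 and 2.17 on the log2 scale, and Cd80, a ligand of CTLA-4, by 4.23. Lgals3, a reported ligand of LAG-3, rose by 3.65. Tnfrsf14, which encodes HVEM, fell (log2 -1.33). Myeloid cells express several of these genes too, and the part of the macrophage carry-over given above was not tested.

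Receptors that act against the checkpoints moved in the same tumors. Of 7 costimulatory genes, 5 rose and 1 fell (37.7% and 39.5% of all genes did): Tnfrsf4 (OX40) rose by 7.28, Tnfrsf9 (4-1BB) by 6.10, Icos by 3.70, Tnfrsf18 (GITR) by 2.94 and Cd28 by 1.44 on the log2 scale, while Cd27 fell (log2 -0.68). Cd226, the activating competitor of TIGIT, had a log2 difference of 0.10 (adjusted p = 0.184 in edgeR), whereas Tigit rose 30.9-fold. Of 8 genes of signalling partners 5 rose and 2 fell, where 77.2% of all genes passed in either direction, and the changes were small. Sh2d1a (log2 -0.66) and Fyn (log2 -0.22) fell. Ptpn6, the gene of the phosphatase SHP-1, rose by 0.80 and Ptpn11, that of SHP-2 recruited by PD-1, by 0.42.

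The transcription factor list, tied by earlier work to exhaustion or memory, had 10 of 16 genes higher and 5 lower, where 37.7% and 39.5% of all genes were. Nr4a2, Nr4a1 and Nr4a3, orphan nuclear receptors induced by T cell receptor signals, rose by 6.02, 4.83 and 4.19 on the log2 scale. Irf4 rose by 4.16 and Prdm1, which encodes BLIMP-1, by 3.57. Tcf7, the gene of the memory and stem-like factor TCF-1, fell (log2 -4.04), as did Id3 (log2 -3.14), Klf2 (log2 -1.66) and Eomes (log2 -1.51). Tox, a factor of exhausted cells, was slightly lower in tumors (log2 -0.36, adjusted p = 0.0254 in edgeR), and Tox2 did not pass the test (log2 0.95, adjusted p = 0.0724). High receptor levels in these tumors were thus measured beside high Nr4a levels and without a rise of Tox. The part of tissue preparation in the Nr4a rises was not tested.

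Foxp3+ T cells carried much of the receptor set in both tissues. Ctla4, a gene bound by Foxp3 itself, was at 1712, 2087, 1404 and 2434 CPM in their tumors and at 409, 568, 668 and 307 CPM in their spleens. Tigit was at 781, 833, 938 and 952 CPM against 267, 381, 310 and 380 CPM. In both genes the lowest tumor lay above the highest spleen. Ctla4 rose 4.09-fold (log2 2.03 ± 0.21 SE, adjusted p = 7.48e-07 in edgeR, 4 of 4 arms) and Tigit 2.74-fold (log2 1.45, adjusted p = 1.91e-07, 4 of 4 arms). A UMI of Tigit was found in 90.1% to 95% of tumor Foxp3+ T cells.

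Larger steps were seen for the members that splenic Foxp3+ T cells hardly carried. Lag3 was at 636, 706, 734 and 1009 CPM in tumors and at 54.5, 46.9, 105 and 57.5 CPM in spleens, a 12.2-fold rise (adjusted p = 3.45e-10 in edgeR, 4 of 4 arms). Havcr2 went from 4 UMIs over the 4 spleens to 121, 153, 164 and 79.2 CPM in tumors (log2 4.79 ± 0.39 SE, adjusted p = 3.90e-08, 4 of 4 arms). Entpd1 rose 6.97-fold, from 16.4, 41.7, 28.2 and 15.3 CPM to 149, 185, 191 and 147 CPM (adjusted p = 1.06e-07, 4 of 4 arms). The macrophage gene sum in these tumor cells was 98.4, 222, 79.1 and 34.6 CPM. It was led in both Aire+/+ tumors by Apoe, which the gate does not limit. The part of this sum in the Havcr2 and Entpd1 values was not tested.

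Pdcd1 behaved otherwise in Foxp3+ T cells. Its tumor values of 151, 203, 164 and 150 CPM overlapped its spleen values of 120, 115, 205 and 111 CPM, and the difference did not pass the test (log2 0.35 ± 0.19 SE, adjusted p = 0.164 in edgeR, higher in 3 of 4 arms). Without the Aire-/- isotype arm, the arm in which the spleen was higher, it did (log2 0.59, adjusted p = 0.0348). Cd160 was almost absent from tumor Foxp3+ T cells, with 2 UMIs against 13 in the spleens, too few for the test (pooled log2 ratio -4.48, -7.67 to -2.33). Of the 6 members tested, 5 were higher in tumors, where 18.1% of the genes tested were.

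Set against CD8 T cells of the same tumor libraries, Foxp3+ T cells had their own receptor profile. Tigit was 3.57-fold higher in them (log2 1.84 ± 0.10 SE, adjusted p = 9.75e-08 in edgeR, 4 of 4 tumors), Ctla4 3.57-fold (adjusted p = 1.59e-07, 4 of 4) and Entpd1 2.30-fold (adjusted p = 2.78e-05, 4 of 4). Pdcd1 was 4.43-fold lower (log2 -2.15, adjusted p = 2.41e-08, lower in 4 of 4), and Cd160 had 2 UMIs in Foxp3+ cells against 741 in CD8 T cells (pooled log2 ratio -6.43, -9.48 to -4.57, adjusted p = 8.32e-07). Hence 3 of 7 members were higher and 2 lower, where 13.1% and 12.3% of all genes tested were. Lag3 (log2 -0.16, adjusted p = 0.295, lower in 3 of 4) and Havcr2 (log2 -0.23, adjusted p = 0.383) did not pass. With the scaling factors of edgeR Havcr2 was lower in 3 of 4 tumors, but in plain CPM it was higher in 3 of 4. Both depended on the Aire-/- anti-PD1 tumor: without it Lag3 passed (log2 -0.29, adjusted p = 0.0384) and Havcr2 turned to 0.03 (adjusted p = 0.904).

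The lists around the receptors differed between these cells as well. Of the costimulatory genes, 6 of 7 were higher in Foxp3+ T cells, Tnfrsf4 most (log2 3.45) and Icos next (log2 2.16), and Cd226 was lower (log2 -3.71). Foxp3+ T cells thus had more Tigit and less of its competitor than CD8 T cells. Among other inhibitory receptors Klrg1 was far higher in them (log2 6.67) and Cd96, another receptor for the poliovirus receptor, lower (log2 -3.48). Either direction was called for 25.4% of all genes.

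NK cells showed 2 opposite changes between spleen and tumor. Cd160, a receptor typical of resting NK cells, was at 146, 135, 271 and 181 CPM in splenic NK cells and fell to 31.1, 55.4, 40 and 58.3 CPM in tumors, 3.03-fold lower (log2 -1.60 ± 0.20 SE, adjusted p = 9.50e-07 in edgeR, lower in 4 of 4 arms). Entpd1 was at 48.7, 13.9, 53.5 and 141 CPM in spleens and at 18.7, 9.65, 27.2 and 27.9 CPM in tumors. The fall of Entpd1, 2.24-fold (log2 -1.16, adjusted p = 0.00186, 4 of 4 arms), did not pass the test without the Aire-/- anti-PD1 arm (log2 -0.67, adjusted p = 0.140).

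Genes that mark NK cells fell along with these receptors in the same cells: Ncr1, Klrb1c, Klra8, Klre1 and Eomes summed to 4834, 4219, 4843 and 5160 CPM in spleens and to 1325, 1323, 1431 and 1363 CPM in tumors. The fall of Cd160 and Entpd1 cannot be told apart from a general loss of NK genes.

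Other members were gained in tumor NK cells. Tigit was at 128, 180, 181 and 155 CPM against 54.8, 51.0, 32.1 and 66.2 CPM (4.14-fold, adjusted p = 3.12e-08 in edgeR, 4 of 4 arms). Lag3 was at 78.8, 75.9, 144 and 105 CPM against 9.13, 9.27, 21.4 and 22.1 CPM (8.77-fold, adjusted p = 1.77e-09, 4 of 4 arms). The clearest gain was in Ctla4, which had 76.7, 77.2, 106 and 123 CPM in tumor NK cells and 0 UMIs in all 4 spleens. Taking 3 counts over the spleens as the limit, Ctla4 was at least 35.7-fold higher in tumors (810 UMIs against 0, adjusted p = 6.89e-10, 4 of 4 arms). It was seen in 28.8% to 40.7% of tumor NK cells and in 0.369% to 0.935% of macrophages of the same libraries.

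Pdcd1 in tumor NK cells came from few cells. Its level of 28.4, 59.9, 38.9 and 39.9 CPM rested on 5, 9, 6 and 14 cells with a UMI, or 4.11% to 7.38%, which is above the 1.27% to 2.03% of macrophages. Splenic NK cells had 4 Pdcd1 UMIs, all in 1 library (log2 rise 3.76 ± 0.52 SE, adjusted p = 5.21e-06 in edgeR, 4 of 4 arms). Havcr2 had 42 UMIs in tumor NK cells and 0 in splenic ones, and was not tested. Of the 42 UMIs 33 came from the Aire-/- anti-PD1 tumor (10.4 CPM, against 1.38 to 2.22 CPM in the others), and without it no difference from the spleens can be told. In sum 4 of 6 tested members rose and 2 fell in NK cells, where 20.9% of genes rose and 16.1% fell.

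The NK gate asks for Ncr1 or Klrb1c and can take in other innate lymphoid cells, so tumor NK cells were split by Eomes, a factor of conventional NK cells, a split chosen after the values were seen. Pdcd1 was at 0, 17.7, 33.3 and 12.8 CPM in cells with an Eomes UMI and at 131, 197, 64.2 and 162 CPM in cells without. In the Aire-/- isotype tumor the intervals overlapped (24.6 to 44.0 against 39.7 to 98.1 CPM). There 49 Pdcd1 UMIs were in cells with Eomes and 21 in cells without. The cells without Eomes, 30, 28, 26 and 57 of them, had the higher Pdcd1 level in each of the 4 tumors. They also had less Klra8, an Ly49 receptor of NK cells (32.0, 16.4, 39.7 and 64.3 CPM against 83.8, 110, 131 and 128 CPM). Ncr1, part of the gate, was not lower in them in 3 of 4 tumors (601, 317, 413 and 408 against 398, 346, 401 and 379 CPM). Ctla4 had no common order, at 134, 137, 55.0 and 137 CPM in cells without Eomes against 60.9, 58.9, 117.5 and 119.7 CPM in cells with it. Absence of a UMI is not absence of the transcript, and shallow cells enter the group without Eomes more readily.

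Against CD8 T cells of the same tumors, NK cells were lower in 6 of 7 receptors (14.9% of all genes were lower). Havcr2 was 26.5-fold lower (log2 -4.73 ± 0.25 SE, adjusted p = 9.31e-09 in edgeR), Pdcd1 15.9-fold (adjusted p = 4.82e-12), Lag3 7.50-fold (adjusted p = 1.83e-10), Ctla4 4.84-fold (adjusted p = 3.66e-10), Entpd1 3.01-fold (adjusted p = 9.14e-06) and Tigit 1.34-fold (adjusted p = 0.00102), each lower in 4 of 4 tumors. The Havcr2 value depends on the Aire-/- anti-PD1 tumor, which holds 33 of the 42 NK UMIs: without it the log2 difference was -5.98. Cd160 did not pass (log2 -0.23 ± 0.14 SE, adjusted p = 0.263, lower in 2 of 4). Tigit and Cd160 were therefore the receptors in which the 2 cell types lay closest. Beyond the 7 members, Klrg1 (log2 4.08) and Cd244 (log2 2.19) were higher in NK cells, Cd96 (log2 -0.67) was lower, and 6 of 7 costimulatory genes were lower, Tnfrsf4 most. Of 11 other inhibitory receptors tested, 5 were higher and 6 lower in NK cells, where 13.6% and 14.9% of all genes were. Past 2-fold, 3 were higher and 5 lower, against 4.61% and 5.56% of all genes.

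Whether the tissue change itself differed between cell types was tested by an interaction in edgeR over the CD45 libraries, added after the values were seen. The rise in tumors was smaller in Foxp3+ T than in CD8 T cells for 5 of 7 members (4.48% of genes tested were). Pdcd1 had the largest difference (log2 -5.02, adjusted p = 7.94e-11), with a smaller rise in 4 of 4 arms. NK cells differed from CD8 T cells in the same direction for 4 of 7 members (11.5% of genes tested), Entpd1 most (log2 -5.09, adjusted p = 6.68e-08, 4 of 4 arms).

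PD-1 blockade acts on CD8 T cells that already carry checkpoint receptors, and Aire loss changes which T cells leave the thymus. The 4 tumors show how the receptor transcripts stood under each, as ratios without replicates. In the CD8 sort the receptors were highest in the Aire+/+ anti-PD1 tumor for Pdcd1, Lag3, Havcr2, Tigit and Ctla4, and lowest in the Aire+/+ isotype tumor for the same 5 genes and for Entpd1. Anti-PD1 in Aire+/+ mice went with higher Tigit (log2 ratio 0.63, 0.58 to 0.68), Pdcd1 (0.52, 0.49 to 0.55), Entpd1 (0.37, 0.28 to 0.47), Ctla4 (0.36, 0.33 to 0.39), Lag3 (0.31, 0.29 to 0.34) and Havcr2 (0.27, 0.21 to 0.33), and with slightly lower Cd160 (-0.12, -0.22 to -0.02). Tigit alone was past 1.5-fold, at 1.54-fold, where 2.49% of the genes with at least 100 UMIs over the pair were past it. In CD8 T cells of the CD45 sort the Tigit ratio was 0.54 (0.31 to 0.77) and that of Pdcd1 0.57 (0.44 to 0.70), both short of 1.5-fold, where 6.53% of genes passed.

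The same antibody in Aire-/- mice left Pdcd1 and Tigit about unchanged. Pdcd1 had a log2 ratio of -0.02 (-0.05 to 0.01) in the CD8 sort and 0.00 (-0.08 to 0.09) in the CD45 sort, and Tigit of 0.02 (-0.04 to 0.08) and 0.10 (-0.04 to 0.25). Lag3 was a little lower in the CD8 sort (-0.11, -0.14 to -0.08), and Havcr2 (0.11), Entpd1 (0.12) and Cd160 (0.17) were a little higher. In the CD45 sort Havcr2 (0.30, 0.11 to 0.49), Entpd1 (0.29, 0.03 to 0.55) and Ctla4 (0.28, 0.18 to 0.38) were higher, by about as much as in Aire+/+ mice. No receptor was past 1.5-fold in either sort, where 1.96% of genes were in the CD8 sort and 5.45% in the CD45 sort. Whether the antibody's effect differs between the genotypes was not tested.

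Aire loss went with higher receptors under the isotype antibody in both sorts, while under anti-PD1 the sorts differed. In the CD8 sort under isotype, 6 of 7 members were higher in the Aire-/- tumor, from Ctla4 (log2 ratio 0.10, 0.07 to 0.14) to Entpd1 (0.32, 0.22 to 0.42), with Pdcd1 at 0.25 (0.22 to 0.28) and Lag3 at 0.26 (0.24 to 0.29). Cd160 had -0.10 (-0.20 to 0.01). Under anti-PD1, Tigit was lower (-0.41, -0.46 to -0.36), and so were Pdcd1 (-0.29, -0.32 to -0.26), Ctla4 (-0.17, -0.21 to -0.14) and Lag3 (-0.16, -0.19 to -0.13), while Cd160 was higher (0.19, 0.08 to 0.30). All 7 members stayed within 1.5-fold in both sorts. In the CD8 sort 3.68% of genes under isotype and 3.29% under anti-PD1 were past it, and in the CD45 sort 5.31% and 5.81%. The median log2 ratio over all genes, in the same order, was -0.03 and -0.01 in the CD8 sort and 0.05 and 0.04 in the CD45 sort. The CD45 sort gave the same sign for Pdcd1 in both comparisons, 0.41 (0.28 to 0.54) and -0.16 (-0.24 to -0.08), but under anti-PD1 5 of 7 members were higher there, with the opposite sign to the CD8 sort for Lag3 (0.13, 0.05 to 0.22), Ctla4 (0.29, 0.18 to 0.39) and Havcr2 (0.18, -0.01 to 0.37, against -0.05, -0.11 to 0.02).

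The same arm was also compared between the sorts. Over 28 pairs of a member and an arm, the level in the CD8 sort differed from that in the CD45 sort by up to 0.39 on the log2 scale, with a median of 0.15. In 17 of the 28 pairs the counting interval left out 0, and in 24 the CD8 sort was higher. Libraries of 1 arm thus differ by more than counting error, and not by the same amount in each arm: Ctla4 differed by 0.39 in the Aire+/+ anti-PD1 tumor and by -0.07 in the Aire-/- anti-PD1 tumor. Of the arm ratios, 23 of 28 had the same sign in both sorts. In the CD8 sort, 3 of the 28 arm ratios were larger in size than 0.39, the largest difference between the sorts of an arm.

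**Figure D2:**
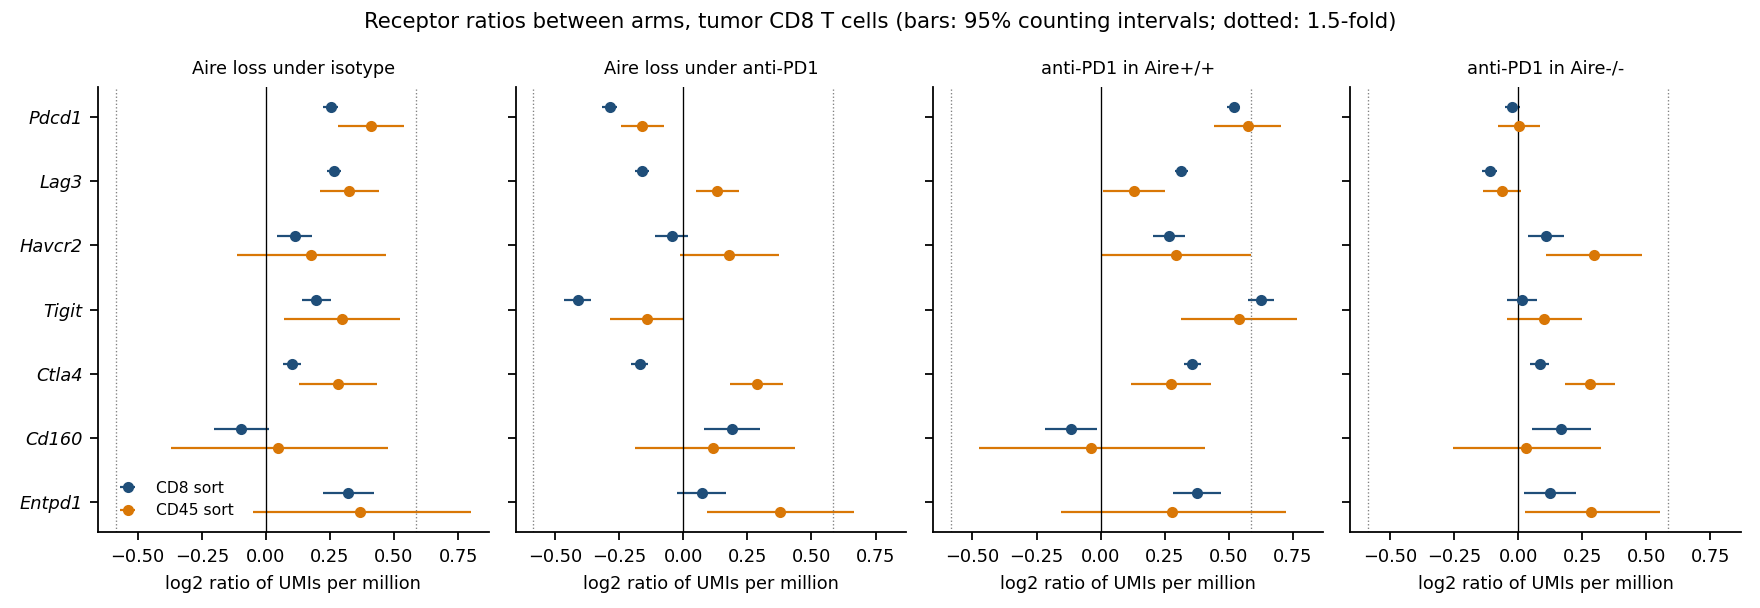
Log2 ratio of CPM between arms for each receptor in tumor CD8 T cells, blue for the CD8 sort and orange for the CD45 sort; bars are 95% counting intervals and dotted lines mark 1.5-fold. Tigit under anti-PD1 in Aire+/+ mice, at 0.63 in the CD8 sort, is the receptor past the dotted line.

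In tumor Foxp3+ T cells a few ratios were past 1.5-fold. Under anti-PD1, Havcr2 was lower in Aire-/- than in Aire+/+ tumors (log2 ratio -0.95, -1.46 to -0.46), 1 of 6 members with enough UMIs, where 8.42% of genes were past the fold. In Aire-/- tumors, anti-PD1 went with lower Havcr2 (-1.05, -1.63 to -0.48) and higher Ctla4 (0.79, 0.65 to 0.94), 2 of 6 members against 8.86% of genes. Both comparisons share the Aire-/- anti-PD1 library, in which Havcr2 stood at 79.2 CPM and Ctla4 at 2434 CPM, its lowest and its highest tumor value. The macrophage gene sum in these cells was 222.5 CPM in the Aire+/+ anti-PD1, 79.1 in the Aire-/- isotype and 34.6 in the Aire-/- anti-PD1 tumor. NK genes summed to 54.4 CPM in the Aire-/- anti-PD1 tumor and to 0 to 2.73 CPM in the others. The part of these genes in the ratios was not tested.

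Tumor NK cells had 5 such ratios. Aire loss went with higher Lag3 under isotype (log2 ratio 0.87, 0.55 to 1.20), 1 of 5 members against 9.45% of genes, and with higher Entpd1 (1.53, 0.73 to 2.43) and Ctla4 (0.67, 0.37 to 0.98) under anti-PD1, 2 of 6 members against 6.01%. Anti-PD1 in Aire+/+ mice went with higher Pdcd1 (1.08, 0.53 to 1.64) and Cd160 (0.83, 0.29 to 1.38), 2 of 5 members against 6.09%. The Pdcd1 ratio rests on 5 and 9 cells with a UMI.

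Splenic CD8 T cells had low levels that differed between the libraries of the 2 genotypes. Lag3 was higher in Aire-/- spleens under isotype (log2 ratio 0.78, 0.36 to 1.20) and under anti-PD1 (1.74, 1.35 to 2.15), and Tigit by 0.86 (0.44 to 1.29) and 0.87 (0.51 to 1.23). Havcr2 was past the fold under isotype (0.75, 0.22 to 1.28) and Entpd1 under anti-PD1 (0.86, 0.27 to 1.46). Thus 3 of 6 members with enough UMIs were past 1.5-fold upward under each antibody, where 2.98% of genes were under isotype and 3.20% under anti-PD1. In the unthinned cells Lag3 was seen in 1.62%, 1.23%, 3.56% and 4.16% of splenic CD8 T cells, and in 0.0756% to 0.533% of splenic B cells, which come from the CD45 libraries and so do not measure free RNA in the CD8 libraries. Eomes moved with them in these cells, at 41.7, 38.8, 55.5 and 67.3 CPM, and whether the receptor ratios follow from a different make-up of these cells was not tested. The CD45 sort holds 141 to 186 splenic CD8 T cells an arm, too few to repeat these ratios: no member reached 100 UMIs over a pair. With anti-PD1 in Aire-/- mice Lag3 was higher again (0.79, 0.45 to 1.13), 1 of 7 members, where 0.700% of genes were.

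Few receptors had enough molecules in the other splenic cells. Ctla4 in splenic Foxp3+ T cells, 1 of 2 members with enough UMIs, was higher with Aire loss under isotype (log2 ratio 0.71, 0.31 to 1.12, where 7.90% of genes were past 1.5-fold) and lower with it under anti-PD1 (-0.89, -1.32 to -0.46, where 12.4% were). It was also lower with anti-PD1 in Aire-/- mice (-1.12, -1.53 to -0.73, where 6.52% were). These ratios share 4 libraries whose values, 307 to 668 CPM, rest on 75 to 166 UMIs each. Cd160 in splenic NK cells was higher with Aire loss under isotype (0.89, 0.35 to 1.44), where 6.91% of genes were past the fold.

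The number of receptors per cell was counted after each cell had been thinned at random to 2000 UMIs, so that deeper cells would not show more. Tumor CD8 T cells of the CD8 sort carried a mean of 2.27, 2.77, 2.46 and 2.43 of the 7 receptors, and splenic ones 0.0793, 0.0811, 0.111 and 0.117. At least 4 receptors were seen in 21.8% (20.2 to 23.5), 32.5% (30.5 to 34.5), 25.0% (23.0 to 27.1) and 23.7% (21.9 to 25.6) of tumor cells, and in 0, 1, 1 and 1 splenic cells. The Aire+/+ anti-PD1 tumor was the highest and the Aire+/+ isotype tumor the lowest, though these intervals count cells of 1 library each and cannot separate the arms as conditions. No receptor was seen in 14.7%, 7.99%, 11.7% and 10.4% of tumor cells. All 7 were seen together in 3, 0, 0 and 2 cells. Just at the limit of the class, 383, 441, 300 and 327 tumor cells had 4 receptors and 562, 576, 458 and 498 had 3.

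Thinning draws molecules at random, so 40 further draws were made after the values were seen. They gave shares with at least 4 receptors of 19.4% to 22.4% in the Aire+/+ isotype tumor, 31.5% to 34.8% with anti-PD1, 24.8% to 28.8% in the Aire-/- isotype tumor and 22.2% to 25.9% with anti-PD1. Across all draws the Aire+/+ anti-PD1 tumor lay above the others, while the ranges of the Aire-/- tumors overlapped each other and that of the Aire+/+ isotype tumor overlapped that of the Aire-/- anti-PD1 tumor. The value of 25.0% for the Aire-/- isotype tumor lies near the low end of its draws, whose mean was 26.7%. In the CD45 sort the means were 2.06, 2.47, 2.33 and 2.32 with at least 4 receptors in 16%, 29.4%, 19.6% and 20.7%, the same highest and lowest arm. With all UMIs kept, the means of the CD8 sort were 4.16, 4.66, 4.29 and 4.18, and at least 4 receptors were seen in 70.1%, 80.7%, 74% and 66.2% of cells, so that the Aire-/- anti-PD1 tumor, the shallowest, became the lowest in that share.

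Other cells give the scale for these means. Tumor Foxp3+ T cells had 2.60, 2.64, 2.80 and 2.66 receptors and splenic ones 1.03, 1.15, 1.30 and 1.07. NK cells had 0.553, 0.730, 0.712 and 0.860 in tumors and 0.355, 0.208, 0.482 and 0.569 in spleens. Foxp3+ T cells were thus the only one of the 3 gates with more than 1 receptor on average in the spleen. Macrophages had 0.367 to 0.430, mostly Havcr2 and Entpd1, and splenic B cells 0.0198 to 0.0311.

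**Figure D3:**
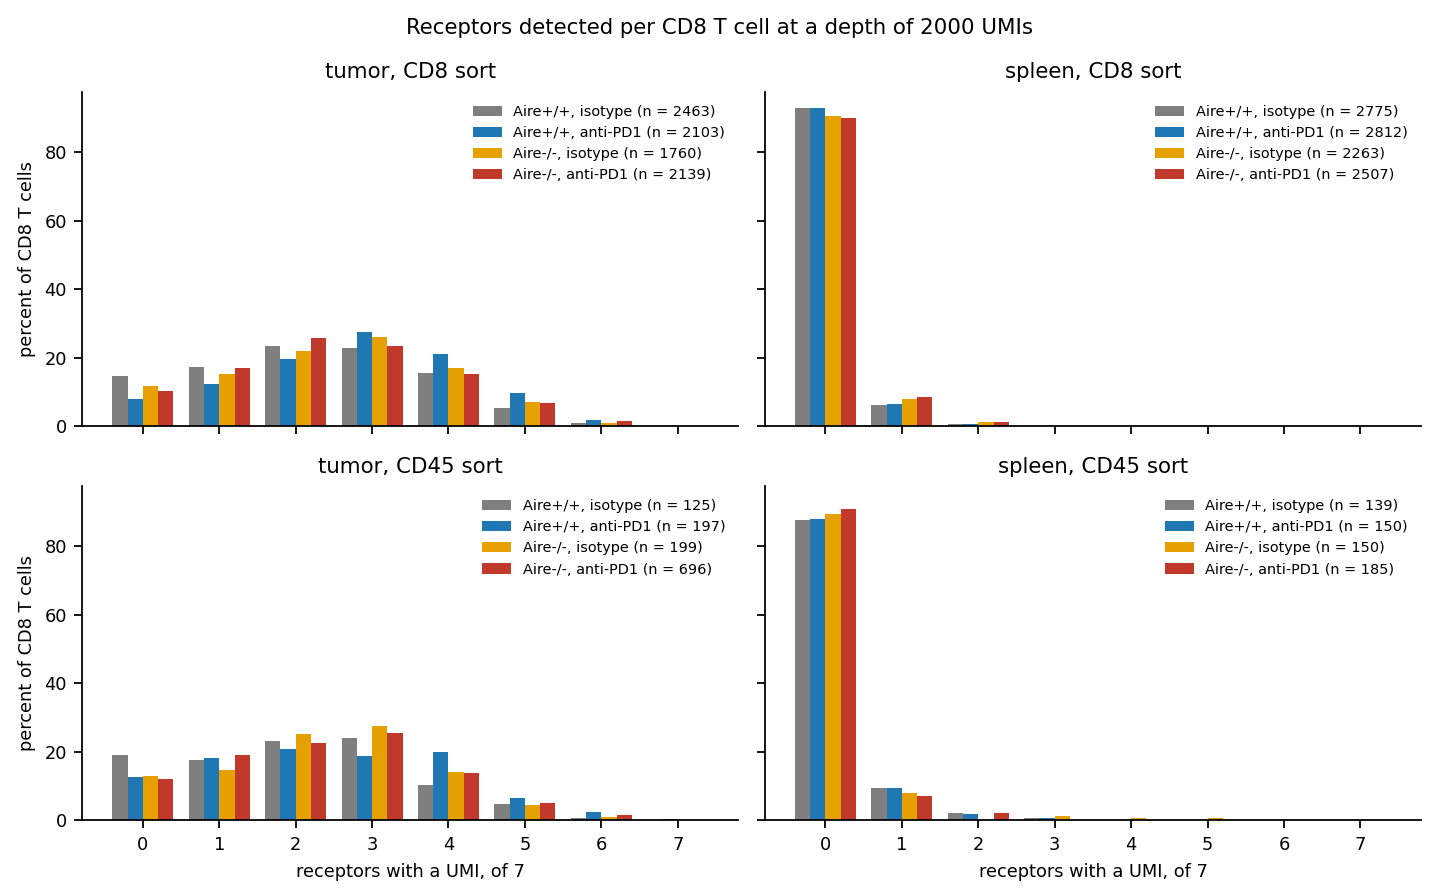
Percent of CD8 T cells by the number of the 7 receptors with a UMI, each cell thinned to 2000 UMIs, for tumor and spleen in both sorts; bars are the 4 arms and n the cells. Splenic cells mostly show 0 receptors, tumor cells 1 to 4, with at least 4 in 32.5% of the Aire+/+ anti-PD1 tumor.

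Which receptors met in a cell was read from the same thinned tumor cells. Pdcd1 was seen in 70.8%, 81.1%, 77% and 72.1% of cells with Lag3 and in 42.9%, 55.6%, 45.5% and 51.4% of cells without, so Pdcd1 was more frequent beside Lag3 in all 4 tumors. Havcr2 was seen in 35.0%, 37.6%, 34.4% and 35.6% of cells with Entpd1 and in 16.8%, 19.9%, 18.9% and 19.6% of cells without. With Lag3, too, Havcr2 was more frequent, in 25.4% to 28.9% of cells against 9.93% to 13.6%. Whether these pairs come from a common cell state or from doublets, which were not removed, was not tested.

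Cd160 again stood aside. It was seen in 6.5%, 4.86%, 3.35% and 4.69% of cells with Entpd1 and in 9.02%, 9.16%, 8.25% and 8.50% of cells without, lower in each tumor. With Lag3 it was more frequent, at 8.68% to 11% against 4.71% to 6.06%, and with Ctla4 there was no common order (6.94% to 8.87% against 7.06% to 9.40%).

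Cells with more receptors were in another state. Tcf7 was at 54.5 to 67.3 CPM over the 4 tumors in cells with 0 or 1 receptor, at 8.90 to 12.2 in cells with 2 or 3 and at 1.74 to 4.10 in cells with at least 4. Klf2, which keeps T cells circulating, went from 704 to 1041 CPM in the lowest class down to 96.2 to 238 CPM in the highest. S1pr1, the receptor for exit into lymph, went from 60.9 to 91.3 CPM down to 2.58 to 6.44 CPM. These 3 genes of memory and circulating cells were therefore highest in cells with few receptors, in each of the 4 tumors.

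Several effector genes, though not Gzma, ran the other way. Prf1, the gene of perforin, was at 188 to 228 CPM in cells with 0 or 1 receptor and at 764 to 1121 CPM in cells with at least 4. Gzmb, granzyme B, went from 2486 to 2791 CPM up to 4091 to 5852 CPM, and Tnfrsf9 from 649 to 781 up to 1562 to 1884 CPM. Ifng and Cxcr6 were higher in the highest class in each tumor too, at 720 to 1329 and 974 to 1113 CPM against 271 to 542 and 461 to 716 CPM. In short, tumor CD8 T cells with at least 4 receptors had more Prf1 and Gzmb RNA than cells with few.

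The proliferation gene Mki67 was lower in cells with at least 4 receptors (35.2 to 47.5 CPM) than in cells with 0 or 1 (73.8 to 91.3 CPM), and Top2a likewise (110 to 153 against 195 to 268 CPM). Cd69 and the integrin gene Itgae, both used as marks of residence in tissue, were lower in the highest class of each tumor as well, Itgae at 7.90 to 43.1 against 23.4 to 131 CPM. Cells with 0 or 1 receptor had lower median depths before thinning (6972 to 9520 UMIs) than cells with at least 4 (9960 to 11380 UMIs), and the part of depth in these contrasts was not tested. Gzma, Ccr7, Nr4a1 and Il7r had no common order over the 3 classes.

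**Figure D4:**
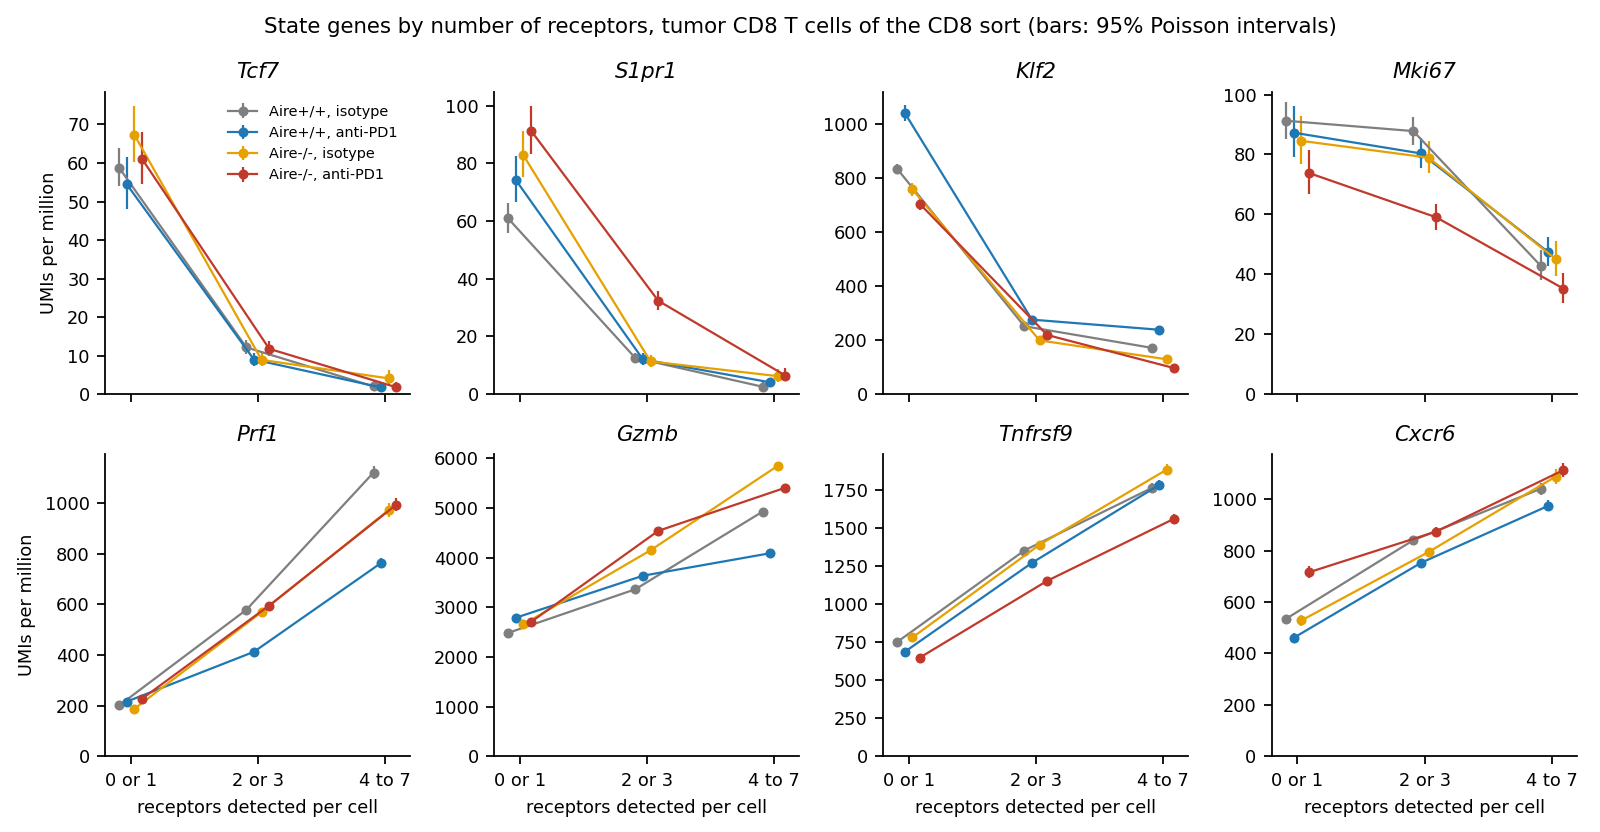
CPM of 8 state genes in tumor CD8 T cells of the CD8 sort, by the number of receptors detected per thinned cell; colors are the 4 arms and bars exact Poisson 95% intervals. Tcf7, S1pr1, Klf2 and Mki67 fall from the lowest to the highest class and Prf1, Gzmb, Tnfrsf9 and Cxcr6 rise, in each of the 4 tumors.

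For each receptor the genes with the most similar profile were sought among 5097 genes over 32 sums of gated cells (Pearson r of log2 CPM with 10 added), as a description, since the sums share libraries and the tissue difference. Pdcd1 was most like Csf1 (r = 0.94), S100a4 (0.92) and Lpxn (0.92), Lag3 like Dusp14 (0.96) and Havcr2 like Ifit3b (0.97). Tigit and Ctla4 were closest to Tnfrsf18 (0.97) and Icos (0.97), both costimulatory receptors, which was not so for the other 5 members. Entpd1 was nearest to Prkar1a (0.93) and Cd160 to Anapc11 (0.89). Among the members, Lag3 with Havcr2 (0.93), Tigit with Ctla4 (0.92) and Pdcd1 with Lag3 (0.91) were the closest pairs, while Cd160 was negatively related to each of the others (-0.59 to -0.14).

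The genes lie apart in the genome (GRCm38, GENCODE). Pdcd1 is at chr1:94038305-94052553 on the minus strand and Ctla4 at chr1:60887000-60915832 on the plus strand. Tigit is at chr16:43648867-43664146 (minus), Lag3 at chr6:124904361-124911705 (minus) and Havcr2 at chr11:46454935-46481255 (plus). Cd160 is at chr3:96798763-96829351 (minus), overlapped on the other strand by Pdzk1, and Entpd1 at chr19:40612366-40741602 (plus). Each is annotated as protein-coding.

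In tumor CD8 T cells of the CD8 sort, 6 of the 7 genes rose together at least 24.9-fold. Promoters of the 7 genes were read for letters bound by factors of T cell receptor signalling. Whether these factors have a part in the rise was not tested. RefSeq promoters of 250 bases before to 50 after the start (GRCm38.p6) were found for 6 of the 7 genes, all but Lag3. The core of NFAT sites, GGAAA on either strand, occurs in 61.3% of 32851 promoters, the AP-1 letters TGANTCA in 7.81% and the NR4A letters AAAGGTCA in 1.51%. In the windows of Pdcd1, Tigit and Ctla4 the NFAT core was found 2, 2 and 1 times, read as TTTCC, and in that of Havcr2 the AP-1 letters once. These 4 are shown 5′ to 3′ on the gene's strand with those letters in capitals. They belong to receptors with a large rise in tumors and 1 listed window, while Entpd1, with a large rise too, has 2 windows and is not shown. A match is a description of the letters, and the NFAT core is common. It was also in a window of Cd160 and of Entpd1 and not in that of Havcr2. As 61.3% of all promoters hold it, nothing is read from its presence here.
Pdcd1: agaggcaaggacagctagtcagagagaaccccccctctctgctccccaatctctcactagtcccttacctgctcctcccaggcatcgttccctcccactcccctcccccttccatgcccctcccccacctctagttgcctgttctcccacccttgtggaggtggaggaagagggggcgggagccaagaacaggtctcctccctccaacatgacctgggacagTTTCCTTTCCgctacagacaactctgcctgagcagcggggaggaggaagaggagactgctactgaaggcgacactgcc
Tigit: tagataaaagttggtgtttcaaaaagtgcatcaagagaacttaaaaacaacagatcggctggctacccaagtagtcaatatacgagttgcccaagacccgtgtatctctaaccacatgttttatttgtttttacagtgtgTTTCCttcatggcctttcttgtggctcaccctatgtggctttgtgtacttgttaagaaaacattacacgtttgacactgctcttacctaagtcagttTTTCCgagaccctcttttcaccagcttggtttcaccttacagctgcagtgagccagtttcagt
Ctla4: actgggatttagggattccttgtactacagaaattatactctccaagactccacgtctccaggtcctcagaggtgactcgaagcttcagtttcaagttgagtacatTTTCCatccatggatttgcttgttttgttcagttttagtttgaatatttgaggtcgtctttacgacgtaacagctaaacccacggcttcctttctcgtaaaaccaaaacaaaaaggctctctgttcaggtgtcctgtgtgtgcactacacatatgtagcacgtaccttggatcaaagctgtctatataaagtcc
Havcr2: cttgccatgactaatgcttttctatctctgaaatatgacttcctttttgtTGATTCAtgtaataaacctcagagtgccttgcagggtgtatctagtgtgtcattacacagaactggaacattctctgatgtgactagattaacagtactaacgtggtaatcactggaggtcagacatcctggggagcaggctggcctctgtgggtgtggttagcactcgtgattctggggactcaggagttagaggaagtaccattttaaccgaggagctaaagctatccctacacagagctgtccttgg

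Those windows are chr1:94052504-94052803 for Pdcd1, chr16:43664135-43664434 for Tigit, chr1:60908775-60909074 for Ctla4 and chr11:46454681-46454980 for Havcr2. In Pdcd1 the 2 cores stand in tandem, beginning 28 and 23 bases before the start, and in Tigit they begin 110 and 13 bases before it. Ctla4 has its core 144 bases before the start, and the AP-1 letters of Havcr2 begin 200 bases before it. Cd160 and Entpd1 each have 2 listed windows, of which the first holds none of these letters and the other 1 and 2 NFAT cores. The NR4A letters were in none of the 8 windows. Other motifs were searched too. RUNX letters (16.8% of all promoters) were in windows of Havcr2, Tigit, Cd160 and Entpd1, and TCF/LEF letters (16%) in those of Ctla4 and Cd160. T-box (13.7%) and TATA letters (13.6%) were in that of Ctla4, and interferon response letters (3.44%) in none.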

How the data were processed

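Single-cell RNA of 16 libraries was measured by UMI counting, and the authors deposited the count of UMIs per gene and barcode as whole numbers without normalization. The labels name a kit for the 3′ end of RNA, while the methods of the study also name a 5′ kit for RNA and T cell receptor libraries of such sorted cells. As T cell receptors are reported for the same CD8 libraries, the kit of each library was not settled. The Cell Ranger version is given with the 5′ kit only. Each gene symbol is the first part of its row name, and rows of 1 symbol were summed (25127 rows, 24469 symbols; 27 vector rows left out). Cells with under 200 genes or over 20% mitochondrial UMIs were removed, 1 to 29 a library. Doublets were not called or removed. CD8 T cells needed a UMI of Cd3d, Cd3e or Cd3g and of Cd8a or Cd8b1 and none of Cd4 or Foxp3; Foxp3+ T cells a Cd3 gene and Foxp3 and none of Cd8a or Cd8b1; NK cells Ncr1 or Klrb1c and none of the Cd3 and Cd8 genes; all of them fewer than 10 UMIs over C1qa, C1qb, C1qc, Lyz2, Csf1r, Cd79a and Cd79b. Macrophages (3 UMIs of C1q genes, 1 of Csf1r) and B cells (3 UMIs of Cd79a and Cd79b), both without Cd3 genes, were references.

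Depth was 10987966 to 38961019 UMIs a library. UMIs were summed per library and gate, with at least 10 cells a sum, and tested with edgeR 4.0.16 (TMM, filterByExpr, quasi-likelihood, arm or library as a block, adjusted p under 0.05) in R 4.3.3, tested on simulated data. Ratios between arms were called at 1.5-fold among genes with at least 100 UMIs over the pair. Intervals are exact (Poisson, Clopper-Pearson, conditional binomial for ratios). Thinning used 2000 UMIs and random seed 1. Python 3.11.15, numpy 2.4.6, scipy 1.17.1, pandas 2.3.3 and matplotlib 3.10.9 were used. Members and lists were chosen with earlier results of these data known. Named genes are the members and genes of the lists past 2-fold with adjusted p under 0.05 or given as background for a member, the state genes, and the 5 genes most like each member. Alternatives were DESeq2 1.42.0, no filter on low counts, no block, stricter gates, no limit on other-lineage genes, each arm left out, per-cell means, a stricter cell filter, TMM scaling, removal of the 5% of cells with most UMIs, the other sort and other thinning depths. A split of NK cells by Eomes, the interactions and 40 further draws were added after the values were seen.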

Additional observations from a re-analysis of the deposited data

Results flagged for a closer look

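Changes from spleen to tumor differed between cell types for several receptors, by an interaction test in edgeR over the CD45 libraries that was added after the values were seen. For Foxp3+ T less CD8 T cells the log2 difference was -5.02 for Pdcd1 (adjusted p = 7.94e-11), -3.66 for Ctla4 (8.61e-09), -2.24 for Tigit (3.94e-07) and -2.06 for Lag3 (1.57e-04). It was -4.60 for Cd160 (0.00798), which rests on 2 tumor UMIs. Splenic Foxp3+ T cells already held Tigit at 267 to 381 CPM, Ctla4 at 307 to 668 CPM and Pdcd1 at 111 to 205 CPM, against 175 to 253, 384 to 566 and 513 to 764 CPM in tumor CD8 T cells of the CD45 sort. For NK less CD8 T cells it was -5.09 for Entpd1 (6.68e-08), -2.71 for Lag3 (3.94e-04), -1.98 for Cd160 (4.89e-06) and -1.75 for Tigit (1.06e-04). Entpd1 and Cd160 fell in NK cells and rose in CD8 T cells.

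Pdcd1 in tumor CD8 T cells moved in opposite directions with Aire loss under the 2 antibodies. The log2 ratio was 0.25 under isotype and -0.29 under anti-PD1 in the CD8 sort, and 0.41 and -0.16 in the CD45 sort. With 1 library an arm the difference was not tested.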

How the results depend on the processing

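Of 360 receptor values in the tested comparisons under other settings, 353 kept their direction and their side of the threshold, 4 lost the call, 2 gained it and 1 reversed: Havcr2 in Foxp3+ T against CD8 T cells, at 0.0323 without the Aire-/- anti-PD1 library and down to -0.348 without another. Besides the changes given beside the results, DESeq2 gave log2 0.50 (adjusted p = 0.110) for Cd160 in CD8 T cells of the CD45 sort. The number of genes called fell with DESeq2 from 1698 to 941 in Foxp3+ T cells, from 3000 to 1931 in NK cells and from 2607 to 1550 for NK against CD8 T cells. Leaving out 1 arm or library gave 1714 to 2364 for the last (1714 without the Aire-/- anti-PD1 library). The other 50 of 54 counts stayed within 1.5 times. The cause of these shifts was not tested.

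Members past 1.5-fold with anti-PD1 in Aire+/+ mice numbered 1 as reported, 2 with per-cell means and 0 in the CD45 sort. Of 196 ratios between arms under other settings, 154 stayed within counting error and 42 moved. Counted separately over the same 196 ratios, 8 changed sign. The mean number of receptors per tumor CD8 T cell, 2.48 at 2000 UMIs, was 1.70 at 1000 UMIs, 3.66 at 5000 UMIs and 4.32 unthinned, as more molecules show more receptors, and the tumors with the highest and lowest mean were the same arms at each depth. Of 28 shares of cells with at least 4 receptors under other settings, 19 left the counting interval of the reported value. Depth limits the spleen most: splenic Foxp3+ T and NK cells have 31 to 82 cells a library, and a receptor at 0 UMIs there was not detectable, not absent.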

Other observations

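Tumor NK cells gained more than checkpoint receptors. Lilrb4a rose by 6.02 on the log2 scale, Tnfrsf9 by 3.88 and Icos by 2.32, while Klrg1 (log2 -2.18) and Lair1 (log2 -1.53) fell in tumors. The Nr4a genes rose here too, Nr4a3 by 4.34, Nr4a1 by 4.20 and Nr4a2 by 2.97, and Pdcd1lg2, a ligand of PD-1, by 3.66. Of the 13 genes of the transcription factor list tested, 4 rose and 6 fell, where 20.9% and 16.1% of all genes did. Of 7 other inhibitory receptors tested, 2 rose and 3 fell, where 20.9% and 16.1% of all genes did, so nothing is read from that count.

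Foxp3+ T cells had more costimulatory transcript in tumors too. Of 6 genes tested, 5 were higher, where 18.1% of all genes were, Tnfrsf9 most (log2 2.99), then Icos (log2 2.24), Tnfrsf4 (log2 2.08) and Tnfrsf18 (log2 1.86). Klrg1 rose as well (log2 1.78) and Tcf7 fell (log2 -5.62). In CD8 T cells Klrg1 did not pass the test (log2 -1.11, adjusted p = 0.108 in edgeR, CD8 sort).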
